A study of Homo sapiens with 16 samples.

Results

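Regions with altered acetylation of histone H3 at lysine 27 (H3K27ac) were examined at 10 genes of the ADAMTS family, namely ADAMTS1, ADAMTS2, ADAMTS3, ADAMTS4, ADAMTS5, ADAMTS6, ADAMTS9, ADAMTS12, ADAMTS14 and ADAMTS16. They are 10 of the 19970 protein-coding genes annotated on the autosomes and chromosome X. The genes were chosen by name, by a rule that was written with the lost and gained regions of these data known, and the counts given for them are therefore descriptions without a test. A region was given to a gene when any of its bases lay in the gene body or within 100 kb of the 5′ end of the gene. By this rule, 27 regions belonged to the 10 genes, of which 6 had lost and 21 had gained H3K27ac.

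The regions came from LX-2 cells, an established line of human hepatic stellate cells with myofibroblastic features, which received either vehicle (DMSO) for 24 h or, for the same time, 50 µM OSMI-1. This compound blocks OGT, the transferase that attaches the sugar O-GlcNAc to nuclear and cytoplasmic proteins, and is called OGTi hereafter. H3K27ac ChIP-seq (sequencing of immunoprecipitated chromatin) was carried out in 4 control and 4 OGTi replicates, whereas the remaining 8 of the 16 libraries (input DNA and column purified chromatin) were not used here. The authors tested the 8 H3K27ac libraries together and listed 3507 lost and 3623 gained regions, at the adjusted p threshold of 0.15 in the names of the lists. The lists give positions in hg38 alone, so that no H3K27ac level, fold change, replicate spread or read depth can be given for any region described here, and a gene without a listed region may be unacetylated, unchanged or changed below the threshold. Expression of the genes was not analysed here, and a region is assigned to a gene by position only.

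ADAMTS proteins are secreted zinc metalloproteinases that carry thrombospondin type 1 repeats and act on the extracellular matrix. ADAMTS2, ADAMTS3 and ADAMTS14 are the procollagen N-proteinases, which remove the amino-terminal propeptide of fibrillar procollagens before fibrils assemble. ADAMTS1, ADAMTS4, ADAMTS5 and ADAMTS9 cleave large proteoglycans such as aggrecan and versican, while ADAMTS12 cleaves cartilage oligomeric matrix protein and ADAMTS6 is linked to fibrillin microfibrils. In liver fibrosis, myofibroblastic stellate cells deposit the fibrillar collagens and proteoglycans on which these enzymes act. H3K27ac marks active promoters and enhancers.

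The family did not change in a single direction. ADAMTS2 and ADAMTS5 had lost regions only, ADAMTS4, ADAMTS6 and ADAMTS12 had gained regions only, ADAMTS16 had both, and ADAMTS1, ADAMTS3, ADAMTS9 and ADAMTS14 had neither. Lost regions were thus found at 3 of 10 members (background, 21.6% of all protein-coding genes) and gained regions at 4 of 10 (background, 30.6%), both shares being near those of genes in general given the small number of members. Neither kind was found at 4 of 10 members (background, 55.0%) and both kinds at 1 of 10 (background, 7.23%). When only regions in the gene body were counted, 3 members had lost regions and 2 had gained ones. The corresponding backgrounds were 6.63% and 10.9% of all protein-coding genes. Among the 8 members at least as long as ADAMTS5 (49.2 kb), these numbers were likewise 3 and 2, against 12.8% and 17.6% of the 6871 protein-coding genes of that length. The length limit was itself taken from the shortest member with a region in its body. A listed region lay within 2500 bp of the 5′ end in ADAMTS5 (lost, background 1.96% of genes) and in ADAMTS4 and ADAMTS12 (gained, background 6.41%).

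**Figure D1:**
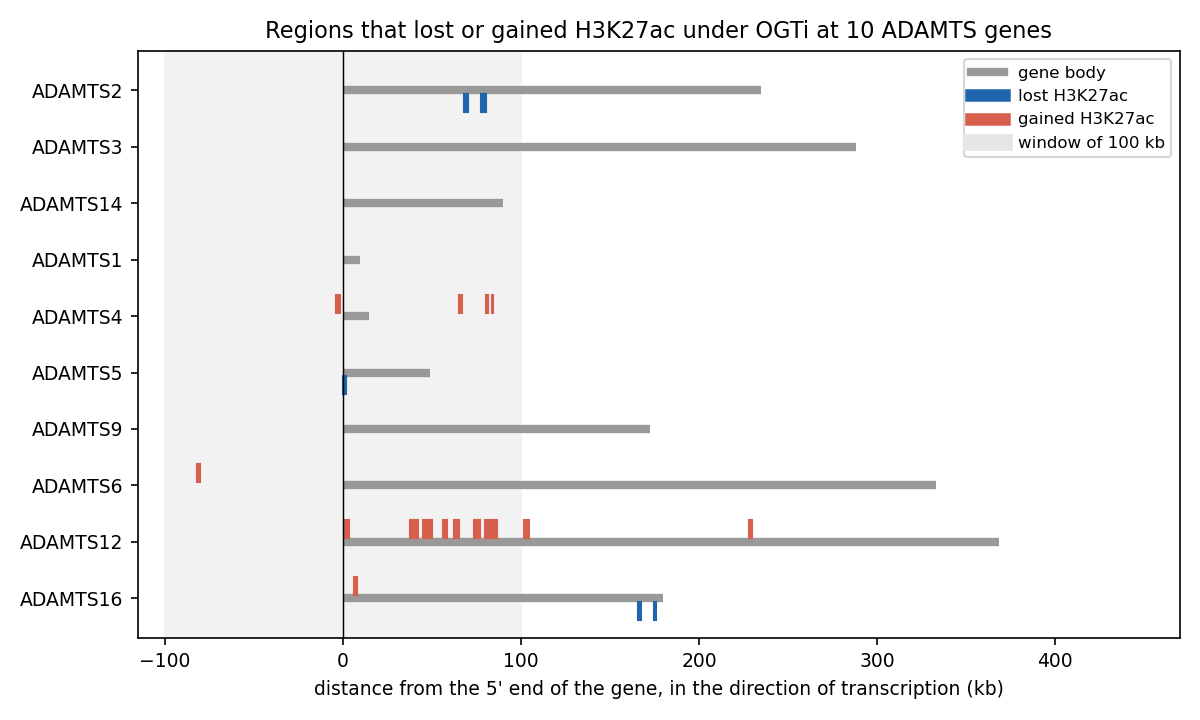
Positions of the 27 listed regions at the 10 ADAMTS genes, as distance from the 5′ end in the direction of transcription (kb), with gene bodies as grey bars, lost regions in blue below them, gained regions in red above them and the window of 100 kb shaded. ADAMTS12 carried 15 gained regions, 13 of them between 37.5 and 105 kb inside the gene, whereas 4 genes carried none.

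The procollagen N-proteinases were compared with the other members. Of the 3 N-proteinases, only ADAMTS2 had listed regions, and all 3 of these were lost. Of the 7 other members, 2 had lost regions (3 regions) and 4 had gained regions (21 regions). Over all protein-coding genes, 21.6% had lost and 30.6% had gained regions. With 3 and 7 genes, the counts of either group cannot be told apart from these shares. No gained region belonged to an N-proteinase gene, but this contrast rests on a single N-proteinase gene, since ADAMTS3 and ADAMTS14 were without a region, and on ADAMTS12 for 15 of the 21 gained regions. The N-proteinase genes spanned 89.9 to 288 kb and the others 9.66 to 368 kb. ADAMTS1, ADAMTS4 and ADAMTS5 (9.66, 14.8 and 49.2 kb) were shorter than any N-proteinase gene. The part of gene length in this contrast was not tested.

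ADAMTS2 is the main N-proteinase of type I and type III procollagen, and its loss causes the dermatosparaxis type of Ehlers-Danlos syndrome. The gene lies on the minus strand of chromosome 5 (179110853 to 179345461). Its lost regions were all intronic and lay far from the 5′ end. The region 179274932 to 179277233 (2302 bp) was in intron 2, 68.2 kb inside the gene, and the abutting regions 179264874 to 179266368 (1495 bp) and 179266369 to 179267804 (1436 bp) were in intron 3, 77.7 kb inside it. Together they covered 5233 bp, or 2.23% of the gene body. ADAMTS2 was the nearest protein-coding 5′ end to each of them. The nearest gained region was 204 kb from the 5′ end of ADAMTS2. Among all protein-coding genes, 78 had more lost regions in the body and 83 had as many.

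Since the study addressed TEAD factors, the lost regions of ADAMTS2 were searched for the TEAD consensus (ACATTCCA, ACATTCCT, GCATTCCA or GCATTCCT on either strand) and for the AP-1 consensus (TGACTCA or TGAGTCA, which are reverse complements of each other). A TEAD match was present in 2 of the 3 regions and an AP-1 match in 1. Over all listed lost regions, the shares were 42.9% and 42.6%, from which counts in 3 regions cannot be told apart. These sites are shown because they are the only such matches in listed regions of an N-proteinase gene, with 10 flanking bases on each side in lower case and the match in capitals. TEAD sites are given 5′ to 3′ on the strand that reads the consensus, here the minus strand, and AP-1 sites on the plus strand, all from hg38.
ADAMTS2 TEAD, chr5:179275649-179275676: ggggctgccaGCATTCCTtggcttgagg
ADAMTS2 TEAD, chr5:179266588-179266615: cagcacacctGCATTCCTcacagttcgg
ADAMTS2 AP-1, chr5:179276079-179276105: cccacgcttcTGACTCAtccctgggtc

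Both TEAD matches of ADAMTS2 read GCATTCCT. In the intron 2 region, the TEAD and the AP-1 match were 69.8 and 69.4 kb inside the gene. A match is a description of the sequence and does not show that a factor binds there.

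ADAMTS3, which acts on procollagen and on the precursor of the lymphatic growth factor VEGFC, had no listed region in its 288 kb body on chromosome 4 (72280969 to 72569221, minus strand). The nearest gained and lost regions were 1133 and 3274 kb from its 5′ end. ADAMTS14 (chromosome 10, 70672506 to 70762441, plus strand), which belongs to the list of heart, kidney and lung fibrosis genes followed by the study, was also without a region. The nearest gained region lay 143 kb from its 5′ end, over the 5′ end of SGPL1, a sphingosine phosphate lyase gene, and hence outside the window of 100 kb.

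Among the proteoglycanases, ADAMTS5 had a lost region at its promoter. ADAMTS5 is a major aggrecanase and lies on the minus strand of chromosome 21 (26917922 to 26967088). The region 26965079 to 26966947 (1869 bp) began 141 bp inside the 5′ end and covered 556 bp of untranslated and 1104 bp of coding sequence of exon 1, with 209 bp of intron 1. It held no TEAD match, but it contained an AP-1 match 577 bp inside the gene, within the 5′ untranslated sequence of exon 1. The match is shown because it is the only AP-1 or TEAD match in a lost region at a member promoter (plus strand, 10 flanking bases).
ADAMTS5 AP-1, chr21:26966495-26966521: cttgcaggatTGAGTCAagtgtcggag

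This region was rich in GC (62.5%) and had a CpG observed/expected ratio (CpG dinucleotides relative to the number given by its C and G content) of 0.775, the highest of the 27 regions. ADAMTS5 and ADAMTS1 are neighbours, with 5′ ends 122 kb apart, and the same lost region was 120 kb from the 5′ end of ADAMTS1 (chromosome 21, 26835755 to 26845409, minus strand), just outside its window. ADAMTS1, a versican-cleaving protease of 9.66 kb, thus had no listed region, and its nearest gained region was 829 kb away.

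ADAMTS4, another aggrecanase and a member of the fibrogenic gene list of the study, had 4 gained regions around a gene of 14.8 kb (chromosome 1, 161184302 to 161199054, minus strand), none of them in the gene body. The nearest region (161200452 to 161202978, 2527 bp) lay 1398 bp upstream of the 5′ end. The other three were beyond the 3′ end of ADAMTS4 and closer to other genes. The region 161132093 to 161133782 was centred 0.249 kb from the 5′ end of DEDD, and 161117311 to 161118772 lay over the 5′ ends of PFDN2 and NIT1. The region 161114567 to 161115290 was centred 3.13 kb from the 5′ end of PFDN2. Only the upstream region had ADAMTS4 as its nearest protein-coding 5′ end. A further gained region, at the 5′ end of SDHC, lay 115 kb upstream and outside the window.

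ADAMTS9, a versican-cleaving protease (chromosome 3, 64515654 to 64688000, minus strand), had no listed region in its 172 kb body. The nearest lost region was 346 kb and the nearest gained region 1104 kb from its 5′ end.

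ADAMTS12 had the largest number of listed regions of the 10 members, with 15 of 27, or 9 of 20 when abutting regions were joined. This protease, which the fibrogenic gene list of the study contains, is encoded by 368 kb on the minus strand of chromosome 5 (33523535 to 33892019). All 15 of its regions were gained and lay in the gene body, where they covered 31552 bp (8.56%). Among protein-coding genes, 1 had more gained regions in the body and none had as many. Since long genes hold more regions, the number was also expressed per length. At 4.07 gained regions per 100 kb, ADAMTS12 ranked behind 7 of the 3661 protein-coding genes of at least 100 kb. The genes with the most similar pattern, defined as gained regions only and the closest number in the body, were VEPH1 (16 regions in 274 kb) and DST (13 regions in 497 kb), as measured over this contrast alone. These ranks describe how the rule's own counts are distributed.

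**Figure D2:**
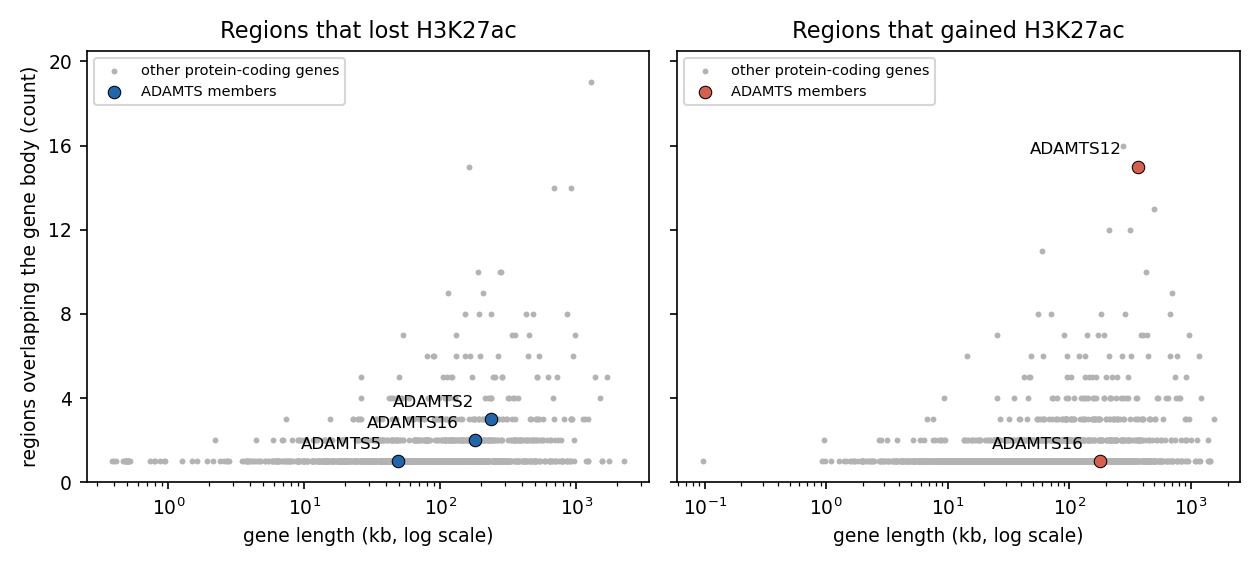
Number of lost (left) and gained (right) regions overlapping the gene body against gene length (kb, log scale) for protein-coding genes with at least 1 such region, with ADAMTS genes as large labelled points. ADAMTS12 had 15 gained regions and lay below a single gene, while ADAMTS2, ADAMTS5 and ADAMTS16 had 1 to 3 lost regions.

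Of the gained regions of ADAMTS12, 14 lay in the first 110 kb of the gene, most of them in intron 2. The region closest to the 5′ end (33888866 to 33891213) lay in intron 1 and began 806 bp inside the gene. A group of 13 regions followed in intron 2, which is 129.6 kb long. They spread over 67.3 kb (33787303 to 33854565), from 37.5 to 105 kb inside the gene, and covered 40.7% of that stretch. The last region (33661995 to 33663855) lay alone, 228 kb inside the gene, and overlapped 46 bp of the coding sequence of exon 6. It was the only ADAMTS12 region closer to the 5′ end of another protein-coding gene, TARS1 (222 kb), than to that of ADAMTS12. No region lay in the remainder of the gene towards its 3′ end. Abutting regions were frequent, as the 15 regions formed 9 blocks, of which the longest were 6683 bp (33805731 to 33812413) and 5160 bp (33842073 to 33847232), each made of 3 regions. Since the authors divided wide peaks into bins, abutting regions can be parts of the same peak and are not independent observations. A minor transcript of ADAMTS12 has its 5′ end 51.7 kb inside the gene, 1761 bp from a gained region. The nearest lost regions were 179 kb beyond the 3′ end and 519 kb upstream of the 5′ end of ADAMTS12.

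The ADAMTS12 regions had a lower CpG ratio than gained regions in gene bodies in general, while their GC content was similar. GC content ranged from 33.9% to 45.6% (median 41.6%) and the CpG ratio from 0.0353 to 0.267 (median 0.141). For comparison, gained regions in protein-coding gene bodies and over 2500 bp from any 5′ end had medians of 42.0% and 0.195. A TEAD match was present in 6 of the 15 regions (40.0%, against 31.5% of these 1422 gained regions and 27.5% of all gained regions). An AP-1 match was present in 6 of 15 regions (40.0%, against 46.6% and 39.6%). Windows of equal length, the central 1000 bp, were also searched in regions at least that long. There, TEAD matches were present in 2 of the 15 regions (13.3%, against 22.3% and 18.5%). AP-1 matches were present in 2 of the 15 (13.3%, against 40.4% and 33.2%). The higher TEAD share of the ADAMTS12 regions was thus not seen in windows of equal length. The 7 TEAD matches are shown to allow comparison with the sites in lost regions, from the 5′ end of the gene inwards and with capitals and flanks as above (minus strand, except the fourth and the last, which are on the plus strand).
ADAMTS12 TEAD, chr5:33852601-33852628: ttccatgtagACATTCCTtcatagttct
ADAMTS12 TEAD, chr5:33835029-33835056: atggttagccGCATTCCTgggttatgga
ADAMTS12 TEAD, chr5:33828086-33828113: gtctgagagtGCATTCCAaattaagtgg
ADAMTS12 TEAD, chr5:33809629-33809656: tatggatcttGCATTCCAgcaggaggag
ADAMTS12 TEAD, chr5:33807975-33808002: catcctgcacGCATTCCAatatgctgta
ADAMTS12 TEAD, chr5:33806167-33806194: aatgcttacaACATTCCTtcaaggtaca
ADAMTS12 TEAD, chr5:33787380-33787407: aatgtcaaaaACATTCCTaaatctgcct

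Of these sites, 3 read ACATTCCT, 3 read GCATTCCA and 1 reads GCATTCCT. The widest ADAMTS12 region (33787303 to 33790393, 3091 bp) contained the closest pair of TEAD or AP-1 matches at any member, made of AP-1 matches 76 bp apart. The stretch is shown with 30 bases on each side and the matches in capitals (hg38, plus strand, intron 2).
ADAMTS12 AP-1 pair, chr5:33788982-33789131: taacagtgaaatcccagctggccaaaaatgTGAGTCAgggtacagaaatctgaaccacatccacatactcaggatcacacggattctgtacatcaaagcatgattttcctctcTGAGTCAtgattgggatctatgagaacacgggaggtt

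None of its 15 regions contained TGATGCAA, the composite ATF4-C/EBP consensus, which was present in 10.1% of all gained regions.

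ADAMTS6 (chromosome 5, 65148738 to 65481920, minus strand) had a single gained region, 65562347 to 65563761, which lay 80.4 kb upstream of its 5′ end. That region covered 5′ ends of CENPK, a kinetochore protein gene, and PPWD1, and its centre was 0.114 kb from that of CENPK. No listed region lay in the 333 kb body of ADAMTS6. A lost region (65126251 to 65128753) lay 20.0 kb beyond its 3′ end and was outside the rule.

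ADAMTS16, which cleaves fibronectin and belongs to the heart, kidney and lung fibrosis list of the study, was the only member with regions of both directions (chromosome 5, 5140330 to 5320304, plus strand). The gained region (5146650 to 5148433) lay in intron 3, 6.32 kb inside the gene. The lost regions lay at the other end of the gene. The region 5306011 to 5307951 covered 225 bp of coding sequence of exon 21, and 5314958 to 5316370 lay in intron 21, 166 and 175 kb inside the gene. Their nearest protein-coding 5′ end was that of ICE1, 114 and 105 kb away. Further lost regions lay 125 kb upstream of ADAMTS16 and 21.5 kb beyond its 3′ end (5341843 to 5344117), both outside the rule. Both lost regions in the gene contained a TEAD and an AP-1 match, which were present in 42.9% and 42.6% of all listed lost regions. The TEAD matches are shown because they can be set beside those of ADAMTS2 (minus strand).
ADAMTS16 TEAD, chr5:5307038-5307065: cccagggctcGCATTCCTttcctgttca
ADAMTS16 TEAD, chr5:5315673-5315700: tctgctgtctGCATTCCAgacaccctct

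The 6 lost regions as a whole were richer in GC than the listed lost regions in general, with a median of 61.3% (range 44.6% to 63.5%) against 46.8%. This reflected ADAMTS2 (60.9% to 63.5%) and ADAMTS5, whereas those of ADAMTS16 had 52.3% and 44.6%. The 6 gained regions outside ADAMTS12 had a median of 51.5%, and those over the 5′ ends of PFDN2, DEDD and CENPK had CpG ratios of 0.692, 0.649 and 0.736. Lost and gained regions at the members were of similar width, with medians of 1682 and 2000 bp, against 1906 and 1697 bp for all listed regions.

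**Figure D3:**
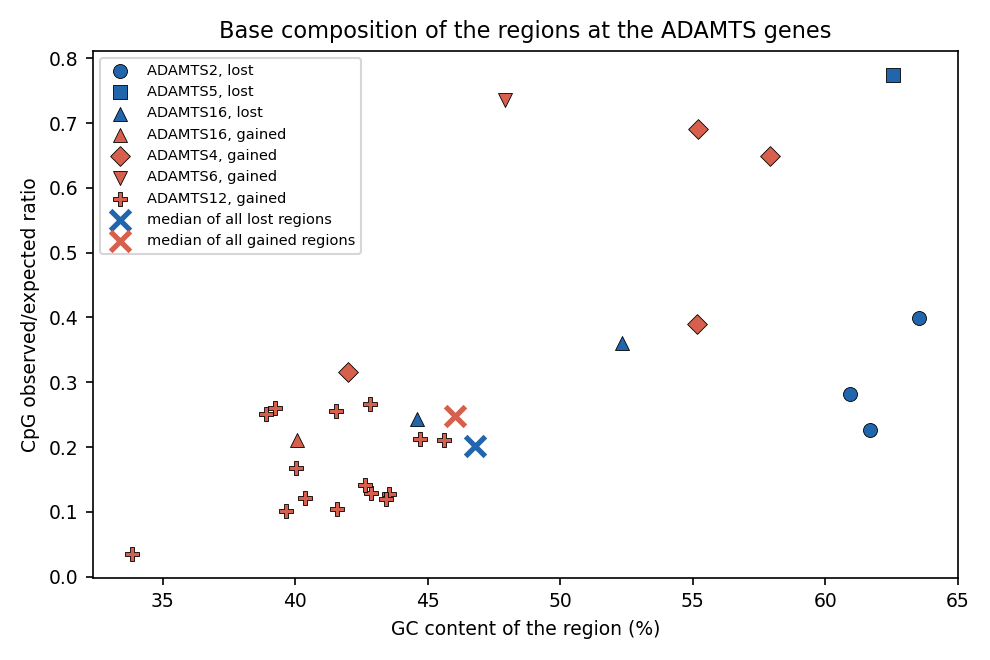
GC content (%) and CpG observed/expected ratio of each of the 27 regions at the ADAMTS genes, by gene (marker) and direction (lost in blue, gained in red), with crosses at the medians of all listed regions. The gained regions of ADAMTS12 lie between 33.9% and 45.6% GC with ratios up to 0.267, and the lost regions of ADAMTS2 and ADAMTS5 at 60.9% GC or more.

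Motif matches were then counted over all member regions. A TEAD match was present in 4 of 6 lost regions (66.7%) and in 6 of 21 gained regions (28.6%), against 42.9% of all listed lost and 27.5% of all listed gained regions. Every gained region with a TEAD match was in ADAMTS12. In windows of equal length, the central 1000 bp, TEAD matches occurred in 4 of 6 lost regions and in 2 of 20 gained ones (1 gained region being shorter than the window), against 33.0% and 18.5% of all listed regions. AP-1 matches occurred in 4 of the 6 lost regions (66.7%, against 42.6% of all lost regions) and in 7 of the 21 gained ones (33.3%, against 39.6%). In the central 1000 bp, they were seen in 2 of 6 lost regions (33.3%, against 32.5%) and in 3 of 20 gained ones (15.0%, against 33.2%). The higher AP-1 share of the lost regions relative to all listed lost regions was thus not seen in windows of equal length. Their share there was still above that of the gained regions at the members. The RUNX consensus TGTGGT was found in 4 of 6 lost and 14 of 21 gained regions (66.7% each, against 68.1% and 60.0%), and the ATF4-C/EBP consensus in none (against 4.36% and 10.1%). The core CATTCC, which every TEAD match contains, was present in 66.7% of the member regions of either direction, against 73.5% of all lost and 58.8% of all gained regions. With 6 lost regions from 3 genes, these differences were not tested.

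**Figure D4:**
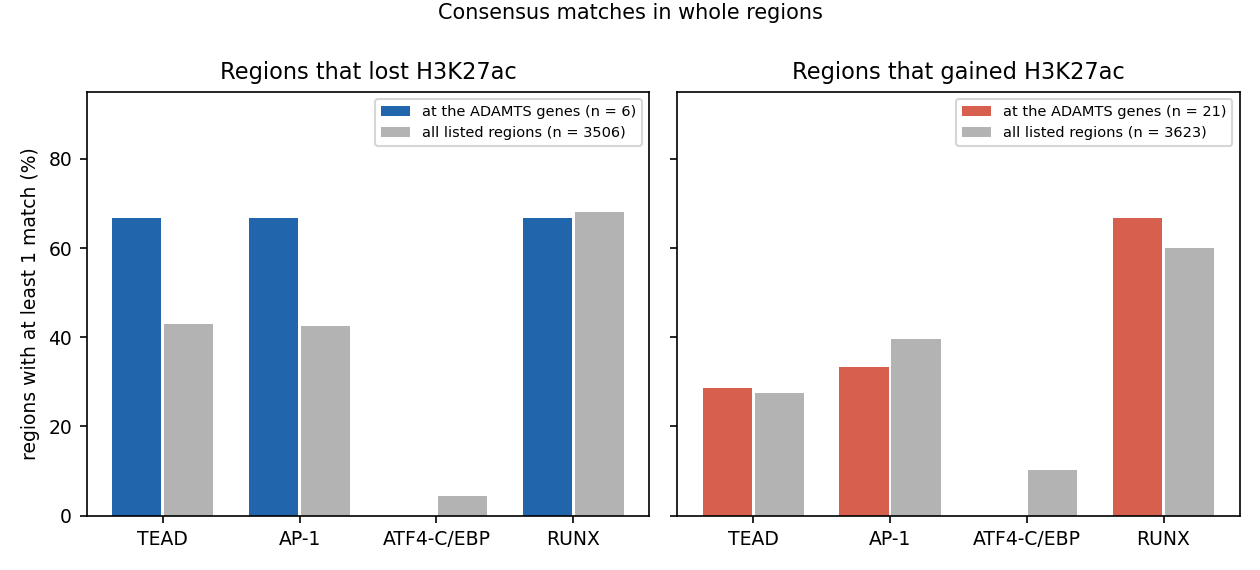
Share of regions (%) with at least 1 match to each consensus on either strand, for regions at the ADAMTS genes (coloured) and all listed regions on assembled chromosomes (grey), lost on the left and gained on the right. TEAD matches were seen in 66.7% of the 6 lost regions at the ADAMTS genes and in 28.6% of the 21 gained ones, and ATF4-C/EBP matches in none.

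RefSeq promoters (250 bases before to 50 after the 5′ end, GRCh38.p14) were matched for 5 of the 10 members, ADAMTS2, ADAMTS3, ADAMTS6, ADAMTS12 and ADAMTS14, and not for ADAMTS1, ADAMTS4, ADAMTS5, ADAMTS9 and ADAMTS16. No listed region overlapped any of these 5 windows. The promoters of the N-proteinase genes were the richest in GC, with 80.3% (ADAMTS2), 72.7% (ADAMTS3) and 79.7% (ADAMTS14), compared with 67.0% for ADAMTS12 and 52.0% for ADAMTS6. None of the 5 contained a TEAD, AP-1, ATF4-C/EBP or RUNX match, as present in 4.15%, 4.95%, 0.866% and 13.1% of all promoters. The core CATTCC was present in the promoters of ADAMTS12 and ADAMTS6 and in 14.0% of all promoters.

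Finally, 42 other genes of the family and its pathway were located in the same way, in 6 lists written with earlier results of these data known. For comparison with each list, 14.4% of all protein-coding genes had lost regions only, 23.4% gained regions only, 7.23% both and 55.0% neither. Of the 9 other ADAMTS genes, 8 had no listed region, and ADAMTS13, which cleaves von Willebrand factor, had 2 lost regions outside its body, both shared with the neighbouring ADAMTSL2 (these genes are named after their values were seen). Among the 7 ADAMTS-like genes, which lack the protease domain, 2 had lost regions only, 1 gained regions only and 2 both. THSD4 (14 lost, 1 gained, all in the body) had the most, followed by ADAMTSL4 (3 lost, 2 of them within 2500 bp of the 5′ end, and 2 gained), ADAMTSL1 (2 gained) and PAPLN (1 lost, at its 5′ end). Of the 5 procollagen C-proteinase genes and their enhancers, 3 had lost regions only, among them PCOLCE, whose product enhances C-propeptide cleavage, with 1 of its 2 lost regions at the 5′ end. The others were TLL1 (4 lost, all in the body) and BMP1 (2 lost), the C-proteinases themselves. PCOLCE2 had 2 gained regions.

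The procollagen substrates were also divided. COL1A1 (4 lost, 2 gained) and COL1A2 (5 lost) had lost regions within 2500 bp of the 5′ end (2 and 1 regions). COL5A1 had 4 lost regions, 3 of them in the body, and no gained one, while COL5A2 (7 gained) and COL3A1 (2 gained) had gained regions only. Of the 8 proteoglycan and other matrix substrate genes, 2 had gained regions only and 2 had both, including FBN1 (4 lost, 1 of them at the 5′ end, and 1 gained). In the list of inhibitor, activators, clearance and modifying enzymes, TIMP3, an inhibitor of aggrecanases, had 1 lost region at its 5′ end, and POFUT2, which fucosylates thrombospondin repeats, had 5 lost regions outside its body. LRP1, an endocytic receptor of ADAMTS proteases, had 2 gained regions. Over the 42 genes, 11 (26.2%) had lost regions only, 7 (16.7%) gained regions only, 5 (11.9%) both and 19 (45.2%) neither, against 14.4%, 23.4%, 7.23% and 55.0% of all protein-coding genes. Within 2500 bp of the 5′ end, 7 of the 42 genes (16.7%) had a lost and 0 a gained region, against 1.96% and 6.41% of all protein-coding genes, and among the 10 members the numbers were 1 and 2. The lists were chosen with results known, and these shares were not tested. TLL1, BMP1 and COL5A1 are named to complete their lists, after their values were seen.

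**Figure D5:**
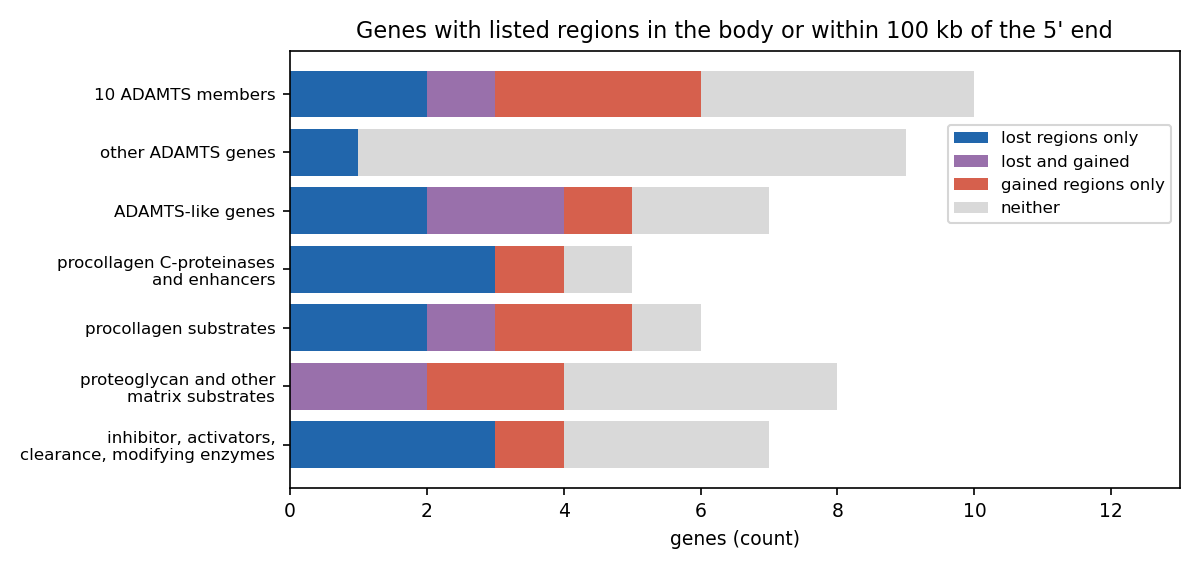
Number of genes with lost regions only, both kinds, gained regions only or neither, in the body or within 100 kb of the 5′ end, for the 10 ADAMTS genes and 6 lists of related genes. Of the 10 members 4 had neither, and of the 9 other ADAMTS genes 8, against 55.0% of all protein-coding genes.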

How the data were processed

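H3K27ac ChIP-seq was performed by the authors in LX-2 cells (4 control and 4 OGTi replicates). Per their methods, reads were aligned to hg38 with Chromap, peaks were called per replicate against input DNA with MACS2 (version 2.1.1.20160309 in the processing notes), and binned peaks of all 8 libraries were tested together with MAnorm2. The deposited lists hold chromosome, start and end of lost and gained regions in bp, with no other column. The methods text names a stricter threshold than the 0.15 in the list names. Starts were converted to count from 1. Genes and transcripts were taken from GENCODE 44, the study having used an earlier release, and sequences from hg38 (regions) and RefSeq (promoters). The 11 regions on mitochondrial or unplaced sequence belong to no gene here, and the unplaced one had no sequence in the motif shares. Python 3.11.15, numpy 2.4.6 and pandas 2.3.3 were used. The assignment was checked on simulated data. Intron and exon numbers follow the Ensembl canonical transcript.

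The members and all gene lists were chosen with earlier results of these data known, and no test was made. All 10 members are named, and other listed genes when a region lay within 2500 bp of the 5′ end or when they ranked among the 3 with the most regions of a direction. Genes tied at 2 gained regions are all named.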

Additional observations from a re-analysis of the deposited data

How the results depend on the processing

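No paired analysis was possible because the deposited positions carry no replicate values. Leaving out a replicate, or a stricter threshold, could not be run for the same reason, and the depth is unknown. Of 218 values recomputed, 198 stayed within the limits of the main value (1.5 times for counts, the Wilson 95% interval for shares, which is wide for 6 regions). Many of the 218 were counts of 0 for single genes, which a narrower setting could not change, so this total overstates stability. Gained regions of ADAMTS4 numbered 4, but 1 with a window of 50 kb. Those of ADAMTS6 numbered 1, but 0 with that window. Members without a region numbered 4, but 2 with a window of 200 kb, where ADAMTS1 and ADAMTS14 each had 1 region. Members with gained regions only numbered 3, but 1 with the gene body only, since the regions of ADAMTS4 and ADAMTS6 lie outside their bodies. Members with both kinds numbered 1, but 2 with the 5′ ends of all transcripts, where ADAMTS6 also had 1 lost region. ADAMTS12 kept 15 gained regions except when regions within 1000 bp were merged (9). The background with gene bodies or 2500 bp was 6.94% (lost) and 11.3% (gained). With the main rule of body or 100 kb, but only genes of at least 49.2 kb, the gained background was 28.5%. In the central 1000 bp, TEAD matches were present in 10.0% and AP-1 matches in 15.0% of gained regions at the members, and the AP-1 share of the 6 lost regions, 66.7%, was 33.3%. This window is by construction shorter.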
